A study of Homo sapiens with 20 samples.

Results

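The response to tankyrase inhibition (TNKSi) was compared between 2 tumor cell lines, COLO 320DM and OVCAR-4. For each gene the log2 change under the tankyrase inhibitor G007-LK in OVCAR-4 was subtracted from the log2 change in COLO 320DM, so a positive difference means a higher response in COLO 320DM. Expression was given as RPKM, reads scaled to transcript length and to the mapped reads of the library. Genes entered the comparison when their mean RPKM reached 1 in both lines, which held for 10446 of the 21201 gene symbols of the table. A mean of 1 RPKM was reached by 833 symbols only in COLO 320DM, by 1979 only in OVCAR-4 and by 7943 in neither line. Just inside the limit were ZFAND4 and NGEF, with means of 1.0002 and 1.0039 RPKM in COLO 320DM, and just outside it CSRNP1 and DDX26B, with means of 0.99952 and 0.99949 RPKM in COLO 320DM.

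The 4 groups were COLO 320DM cells with 1 µM G007-LK, COLO 320DM cells with 0.01% DMSO, OVCAR-4 cells with 1 µM G007-LK and OVCAR-4 cells with 0.01% DMSO, all for 24 h. COLO 320DM is an established line from a colorectal adenocarcinoma and OVCAR-4 one from a high-grade serous ovarian carcinoma. Each group held 2 libraries described as biological replicates, which gives 8 of the 20 poly(A) RNA libraries of the series. The other 12 came from ABC-1, UO-31 and RKO cells. With 1 line per tumor type, tissue of origin, genotype and culture cannot be told apart as sources of a difference between the lines.

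Tankyrases attach poly(ADP-ribose) chains to proteins such as AXIN and the angiomotins, which marks them for degradation. Blocking the enzymes stabilizes AXIN, the scaffold of the complex that degrades β-catenin, and angiomotins, which hold the co-activator YAP away from its TEAD partners. COLO 320DM carries amplified MYC. It also carries a mutated APC, a scaffold of the same degradation complex, so WNT/β-catenin target genes are active in it without a ligand. ATF4 and its partner CHOP (gene DDIT3) drive the genes of the integrated stress response, which cells raise when amino acids are short or proteins misfold.

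The summed RPKM of a library ran between 367196 and 411417 in COLO 320DM and between 863076 and 909187 in OVCAR-4. Read counts were not in the table, so absolute depth is unknown. Ratios of low values, which stand for small whole numbers of reads, put the other libraries at 0.855 to 1.064 times the depth of DMSO replicate 1 of their line. The lowest was COLO 320DM DMSO replicate 2. Replicates correlated across genes with Pearson's r of 0.9962 to 0.9981. Of the markers of colon and neuroendocrine cells, CDX2, a transcription factor of intestinal cells, had 523 and 516 RPKM in G007-LK-treated and 732 and 763 RPKM in DMSO-treated COLO 320DM cells, whereas the intestinal markers CDX1 and VIL1 and the neuroendocrine marker CHGA stayed under 1 RPKM there. In OVCAR-4, PAX8, a transcription factor of the Müllerian tract, had 87.9 and 89.5 RPKM with G007-LK and 81.2 and 81.3 RPKM with DMSO, while WT1, another marker of serous carcinoma, averaged 0.0919 RPKM. Of 8 blood cell markers, PTPRC reached 1 RPKM in COLO 320DM (mean 3.47 RPKM), CSF1R did so in OVCAR-4 (mean 1.33 RPKM) and HBB was listed at 0 in both lines.

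TNKSi moved many genes by different amounts in the 2 lines. All responses and differences are on the log2(RPKM + 0.5) scale, which understates changes of low genes. The difference in response passed the threshold for 2099 of the 10446 genes, 20.1% of those tested (limma, Benjamini-Hochberg adjusted p under 0.05 over all genes). It was positive for 1415 genes (13.5%) and negative for 684 (6.55%). Of the 1415 positive differences, 577 belonged to genes that rose in COLO 320DM and passed no test in OVCAR-4, 496 to genes that fell in OVCAR-4 and passed no test in COLO 320DM, and 134 to genes that rose in COLO 320DM and fell in OVCAR-4. Of the 684 negative ones, 391 fell in COLO 320DM alone, 117 rose in OVCAR-4 alone and 77 fell in COLO 320DM and rose in OVCAR-4. Within COLO 320DM 3380 genes passed (32.4%), of which 1389 rose and 1991 fell (13.3% and 19.1%). Within OVCAR-4 2967 passed (28.4%), of which 525 rose and 2442 fell (5.03% and 23.4%). Once the libraries of a line were brought to the same median ratio, 1892 genes rose and 1757 fell in OVCAR-4. The excess of falls there thus depended on the scale. Across genes, which are not independent replicates, the 2 responses had a Spearman correlation of 0.22. The count of differences ran between 533 and 4904 with 1 library left out. It was 533 without OVCAR-4 G007-LK replicate 2, 638 without OVCAR-4 G007-LK replicate 1, 976 without OVCAR-4 DMSO replicate 2, 1296 without OVCAR-4 DMSO replicate 1, 1203 without COLO 320DM G007-LK replicate 1 and 4904 without COLO 320DM DMSO replicate 2. The OVCAR-4 response count was lower without any 1 of the OVCAR-4 libraries and higher without either COLO 320DM DMSO library. Both lines share 1 estimate of the spread in the fit, so the OVCAR-4 count also depends on the spread of the COLO 320DM libraries. Single calls in OVCAR-4 often did not pass with an OVCAR-4 library left out.

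**Figure D1:**
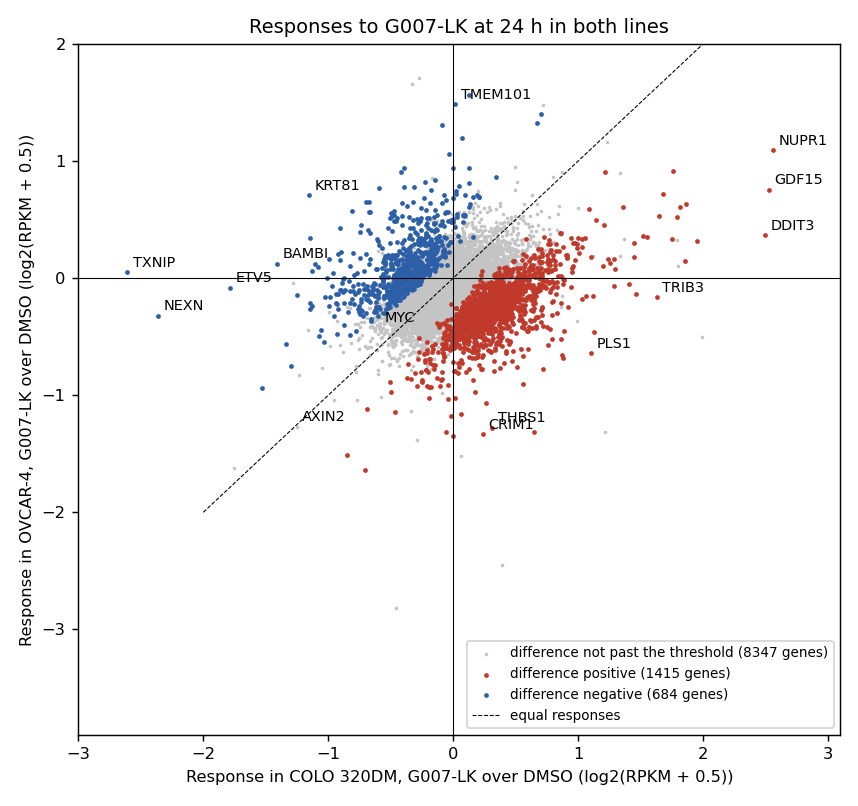
Each point is 1 of the 10446 genes compared, with its log2 response to G007-LK in COLO 320DM on the horizontal axis and in OVCAR-4 on the vertical axis, and the dashed line marks equal responses. The 1415 positive differences lie below the line and the 684 negative ones above it, with TXNIP and NEXN (-2.61 and -2.36 in COLO 320DM) at the left and NUPR1, GDF15 and DDIT3 (2.56, 2.53 and 2.50) at the right.

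The values carried a scale shift and a dependence on base composition that moved with the differences. The median difference over all genes was 0.10 log2 on the values as deposited and 0.00 once the libraries of a line had been brought to the same median ratio, a shift of the whole distribution. On these rescaled values 3672 genes passed (35.2%), 1747 with a positive and 1925 with a negative difference (16.7% and 18.4%). With the genes in 10 bins of GC content, the median difference was 0.30 in the lowest bin (30.7 to 38.3% GC) and -0.06 in the highest (61.7 to 83.9% GC). Genes with positive differences had a median GC content of 43.1% and a median transcript length of 4500 bases, those with negative differences 55.8% and 2101 bases, and genes not past the threshold 48.4% and 3458.5 bases. The same dependence was present between replicates, where the change from replicate 1 to replicate 2 had a Spearman correlation with GC content of -0.54 in COLO 320DM DMSO, 0.52 in COLO 320DM G007-LK, -0.23 in OVCAR-4 DMSO and 0.37 in OVCAR-4 G007-LK. After the dependence on GC content and length was taken out of each library, a correction chosen after the data had been seen, 4072 of 10261 genes passed (39.7%), and 1921 differences were positive and 2151 negative (18.7% and 21.0%). The difference passed the threshold in the same direction on all 3 scales for 1187 genes with positive values (11.4%) and 659 with negative values (6.31%). In the following, differences are on the values as deposited, and rescaled or corrected values are given where they change the call of a named difference. The part of base composition in single results was not tested beyond these values.

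**Figure D2:**
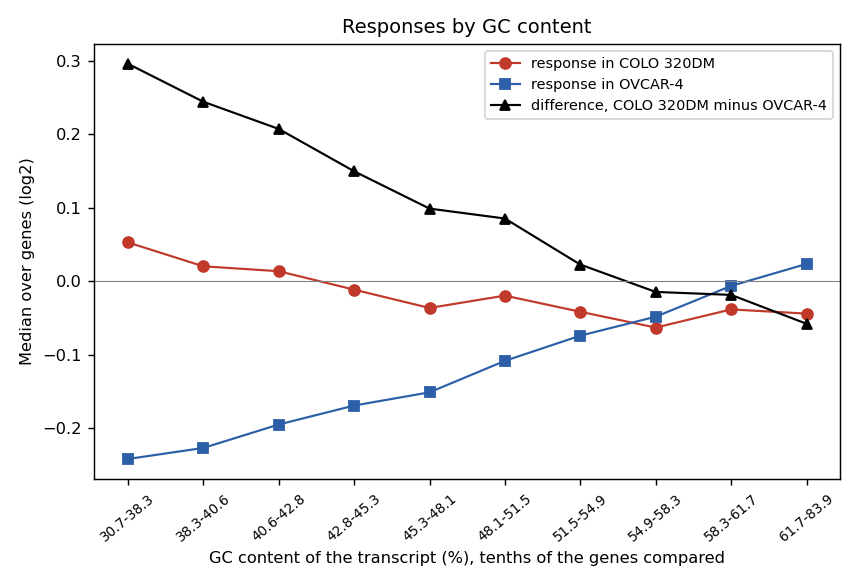
The horizontal axis gives 10 bins of the genes compared in order of the GC content of their transcripts (%), and the vertical axis the median log2 response for each line and of the difference. The median difference is 0.30 in the lowest bin and -0.06 in the highest, and the OVCAR-4 response rises with GC content.

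Most genes of the integrated stress response rose in COLO 320DM, and they moved in both directions in OVCAR-4. Within the lines, 22 of the 26 compared members rose and 1 fell in COLO 320DM, and 7 rose and 5 fell in OVCAR-4, against 13.3%, 19.1%, 5.03% and 23.4% of all genes. Of 28 genes regulated by ATF4 and CHOP, 26 were compared, and 22 had a positive and 1 a negative difference past the threshold, against 13.5% and 6.55% of all genes. The 2 members not compared, ALDH1L2 and VLDLR, had means under 1 RPKM in COLO 320DM. The median difference of the list was 0.82 log2, and 0.72 after correction for GC content and length, beside 0.10 and 0.00 over all genes. On the rescaled values the median response of the list was 0.80 in COLO 320DM and 0.10 in OVCAR-4. Between 18 and 24 members had a positive difference with 1 library left out.

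DDIT3, which encodes CHOP, lies at chr12:57910371-57915520 (hg19). It had 59.5 and 59.7 RPKM in G007-LK-treated against 9.76 and 10.5 RPKM in DMSO-treated COLO 320DM cells, and 16.9 and 19.5 RPKM with G007-LK against 14.5 and 13.5 RPKM with DMSO in OVCAR-4 cells. The groups did not overlap in either line, and the gap was far wider in COLO 320DM. The OVCAR-4 response did not pass without OVCAR-4 DMSO replicate 2 (0.32, limma adjusted p = 0.111) or G007-LK replicate 2 (0.27, 0.154). The difference was 2.13 ± 0.13 log2 (SE; limma adjusted p = 1.86e-09), from a response of 2.50 in COLO 320DM and 0.37 in OVCAR-4. DDIT3 shares 355 exonic bases (27.2% of its exons) with MARS on the opposite strand, and the counting is not stated to use strand. MARS, listed under that symbol, had a smaller difference of 0.30 (limma adjusted p = 0.0192). With all 20 libraries in the fit, the response of DDIT3 in ABC-1, UO-31 and RKO cells was 0.29, 0.28 and 0.12. Only that in ABC-1 passed (limma adjusted p = 0.0345).

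TRIB3, a pseudokinase induced by CHOP, had 47.0 and 48.3 RPKM with G007-LK against 14.9 and 15.2 RPKM with DMSO in COLO 320DM, and 28.2 and 30.8 RPKM against 32.7 and 33.4 RPKM in OVCAR-4. In RPKM, TRIB3 in COLO 320DM stood below OVCAR-4 with DMSO and above it with G007-LK. These RPKM were not rescaled between the lines, whose sums differ. The difference of TRIB3 was 1.79 ± 0.11 (SE; limma adjusted p = 1.86e-09). SESN2, which senses leucine and restrains mTORC1, had 10.4 and 10.6 RPKM with G007-LK against 3.28 and 3.71 RPKM with DMSO in COLO 320DM, and 39.3 and 40.6 RPKM against 42.4 and 45.5 RPKM in OVCAR-4. Its difference was 1.60 ± 0.14 (SE; limma adjusted p = 9.44e-08). GDF15, a secreted stress cytokine, had 3.40 and 3.74 RPKM with G007-LK against 0.252 and 0.163 RPKM with DMSO in COLO 320DM, and 719 and 796 RPKM against 440 and 457 RPKM in OVCAR-4. The gene rose in both lines from very unequal levels, by 2.53 log2 in COLO 320DM and 0.75 in OVCAR-4. The change in COLO 320DM is understated because 0.5 is added before the log. GDF15 reached the limit of 1 RPKM in COLO 320DM only through its G007-LK libraries, so its place among the 22 positive differences rests on that rise. NUPR1, a small stress-induced chromatin protein, rose in both lines as well, by 2.56 and 1.09, with a difference of 1.47 ± 0.14 (SE; limma adjusted p = 3.79e-07).

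Among the transcription factors of the group, ATF5, which shares 19.5% of its exonic bases with NUP62 on the opposite strand, had a difference of 1.46, ATF3 of 1.10, CEBPB of 0.99 and CEBPG of 0.79. ATF4 itself, which is regulated mainly in its translation, had a small one of 0.29 (limma adjusted p = 0.0112), which no longer passed without OVCAR-4 DMSO replicate 2, OVCAR-4 G007-LK replicate 1 or OVCAR-4 G007-LK replicate 2 (0.0764, 0.0634 and 0.0784) or after rescaling (0.052). Effectors followed with 1.27 for the cystine transporter SLC7A11, 1.22 for PPP1R15A, a subunit that lets eIF2α be dephosphorylated, 1.17 for the glutathione-degrading enzyme CHAC1 and 1.12 for the asparagine synthetase ASNS. ASNS shares 49.3% of its exonic bases with another annotated gene on the same strand, so its reads are uncertain. The mTORC1 inhibitor DDIT4 rose in both lines, by 1.76 in COLO 320DM and 0.91 in OVCAR-4. The member with a negative difference was SLC3A2, the shared heavy chain of amino acid transporters, which had 136 and 135 RPKM with G007-LK against 161 and 175 RPKM with DMSO in COLO 320DM and 180 and 188 RPKM against 185 and 184 RPKM in OVCAR-4. Its difference of -0.31 (limma adjusted p = 0.0134) did not pass without any one of the 4 OVCAR-4 libraries (adjusted p of 0.0533 to 0.105).

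**Figure D3:**
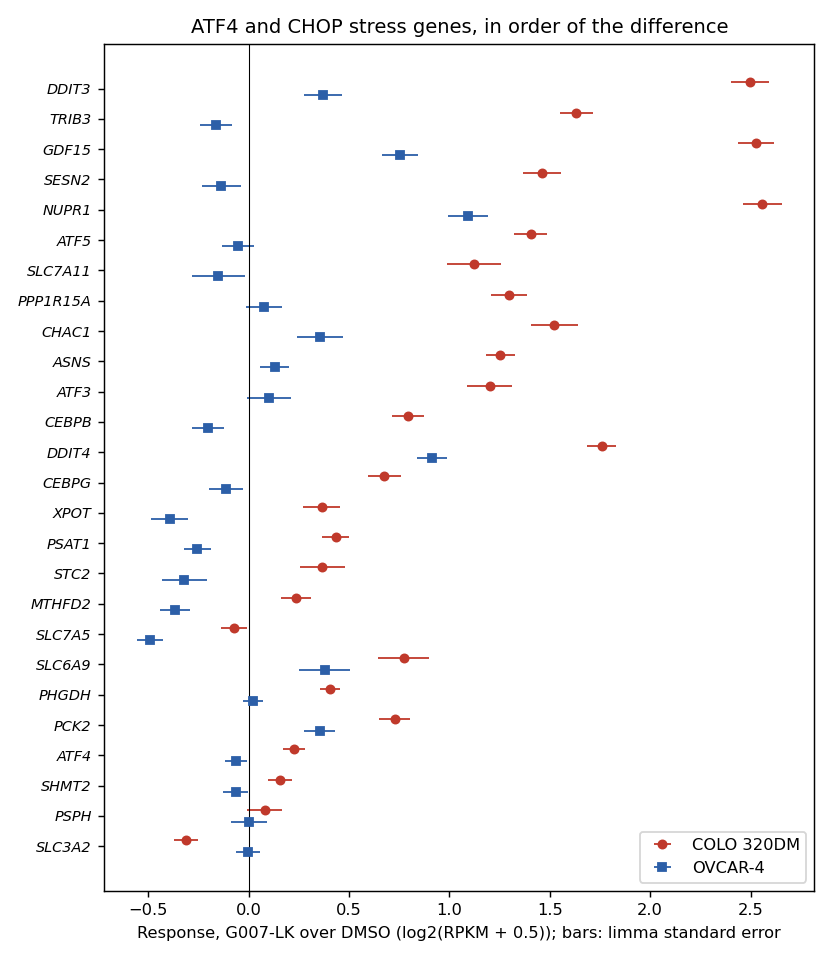
Responses of the 26 compared genes regulated by ATF4 and CHOP, as log2 change of G007-LK over DMSO with the limma standard error, in COLO 320DM (circles, drawn above) and OVCAR-4 (squares). From DDIT3 at the top to SLC3A2 at the bottom, the COLO 320DM value lies to the right of the OVCAR-4 value except in SLC3A2.

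The promoters of these genes are shown because members moved together in COLO 320DM. The sequences are RefSeq promoters (GRCh38.p14), searched from 250 bases before to 50 after the start on both strands for TGATGNAA, the letters of the composite site that ATF4 and C/EBP partners recognize. Of 35116 promoters, 3.62% held a match. Some members of the list had several promoters, so a count of members does not compare directly with this share per promoter. Promoters were at hand for 23 of the 28 members, and 5 of those held a match in any of their promoters. SLC3A2 held its match after the start and is not shown, and the other 4 are given as 80 bases, 5′ to 3′ on the strand of the gene, with the match in capitals.
CHAC1: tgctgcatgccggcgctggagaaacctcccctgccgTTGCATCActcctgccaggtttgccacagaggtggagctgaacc
ASNS: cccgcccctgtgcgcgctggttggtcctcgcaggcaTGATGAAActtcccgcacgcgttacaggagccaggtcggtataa
ATF3: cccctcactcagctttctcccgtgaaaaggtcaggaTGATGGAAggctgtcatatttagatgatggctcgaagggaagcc
CEBPG: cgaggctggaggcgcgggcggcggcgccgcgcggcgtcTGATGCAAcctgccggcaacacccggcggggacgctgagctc
The stretches lie at chr15:40953226-40953305 (+) for CHAC1, chr7:97872433-97872512 (-) for ASNS, chr1:212565180-212565259 (+) for ATF3 and chr19:33374033-33374112 (+) for CEBPG. The match begins at base -209, -68, -191 and -42 from the start, in the same order, and in CHAC1 it is on the opposite strand. DDIT3, TRIB3 and SESN2 held no match in this window. ASNS, ATF3, CEBPG and SLC3A2 each also had a promoter without a match. A match is a description of letters and no evidence of binding in these cells.

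Cytosolic aminoacyl-tRNA synthetases, which load tRNAs and include known ATF4 targets, differed in 1 direction, in part through falls in OVCAR-4. All 20 were compared, and 12 had a positive and 0 a negative difference, against 13.5% and 6.55% of all genes. In COLO 320DM 7 rose and 6 fell, and in OVCAR-4 0 rose and 10 fell. The median difference was 0.32, and 0.21 after correction for GC content and length. SARS, for serine, had 126 and 121 RPKM with G007-LK against 70.2 and 74.2 RPKM with DMSO in COLO 320DM, and 76.3 and 78.2 RPKM against 80.8 and 78.2 RPKM in OVCAR-4. The treated and control libraries were apart in COLO 320DM and met in OVCAR-4, and the difference was 0.81 ± 0.09 (SE; limma adjusted p = 4.18e-06). The synthetases AARS, WARS and CARS followed with 0.77, 0.60 and 0.56. The count of positive differences was 4 without OVCAR-4 G007-LK replicate 2 and 6 without OVCAR-4 G007-LK replicate 1, and after the correction 8 were positive and 3 negative, beside 18.7% and 21.0% of all genes.

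Other stress genes differed less as groups. Of 21 compared chaperones and unfolded protein response genes of the endoplasmic reticulum (ER), 9 had a positive and 1 a negative difference (13.5% and 6.55% of all genes), with a median of 0.30. HERPUD1, a component of ER-associated degradation, had a difference of 0.57 ± 0.10 (SE; limma adjusted p = 0.000484), with 85.3 and 84.4 RPKM with G007-LK against 49.2 and 54.1 RPKM with DMSO in COLO 320DM and 60.8 and 62.9 RPKM against 55.5 and 56.9 RPKM in OVCAR-4. The positive count fell to 1 and 2 without OVCAR-4 G007-LK replicate 2 and replicate 1, to 4 without OVCAR-4 DMSO replicate 2 or COLO 320DM G007-LK replicate 1 and to 6 without OVCAR-4 DMSO replicate 1, and was 15 without COLO 320DM DMSO replicate 2. Of 18 genes of the NRF2 and heme pathways, 7 were positive and 2 negative, beside 13.5% and 6.55% of all genes. The list had 11 positive members without COLO 320DM DMSO replicate 2. The quinone reductase NQO1 rose by 1.00 in COLO 320DM and by 0.35 in OVCAR-4, and OSGIN1 by 1.55 and 0.36. The OVCAR-4 rise of NQO1 did not pass without OVCAR-4 DMSO replicate 2 or either G007-LK library (limma adjusted p of 0.0524 to 0.058), nor that of OSGIN1 without any one OVCAR-4 library (0.0506 to 0.263).

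WNT/β-catenin feedback genes fell mostly in COLO 320DM, and AXIN2, NOTUM and ZNRF3 fell in both lines. Of the 9 compared, 8 fell and 0 rose in COLO 320DM, and 3 fell and 1 rose in OVCAR-4. Of 20 feedback inhibitors and targets, 9 were compared, and 4 had a negative and 0 a positive difference, against 6.55% and 13.5% of all genes. The median difference was -0.24, and -0.19 after correction for GC content and length. With 1 library left out it ran between -0.50 and -0.07. AXIN2, the feedback scaffold at chr17:63524681-63557766 (hg19), had 52.8 and 51.3 RPKM with G007-LK against 116 and 134 RPKM with DMSO in COLO 320DM, and 2.86 and 2.98 RPKM against 7.48 and 7.98 RPKM in OVCAR-4. It fell by 1.25 log2 in COLO 320DM and by 1.27 in OVCAR-4 from levels far apart, and the difference of 0.02 ± 0.13 (SE) did not pass the test (limma adjusted p = 0.949). AXIN2 shares 25.3% of its exonic bases with another annotated gene on the same strand. NOTUM, which inactivates WNT ligands, had a difference of -0.02 and the receptor-removing ligase ZNRF3 one of 0.03, with falls of 0.49 to 0.78 in each line. The sign of these small differences depends on the scale, since AXIN2 and ZNRF3 were negative after rescaling (-0.08 and -0.07) and NOTUM positive after the correction (0.02). The fall of ZNRF3 in OVCAR-4 did not pass without OVCAR-4 G007-LK replicate 2 (0.0578).

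The 4 negative differences were those of RNF43, TNFRSF19, TCF7 and ASCL2. RNF43, the partner of ZNRF3, had 15.1 and 13.8 RPKM with G007-LK against 23.4 and 26.2 RPKM with DMSO in COLO 320DM, and 4.41 and 4.79 RPKM against 4.97 and 5.09 RPKM in OVCAR-4. It fell by 0.76 in COLO 320DM and its OVCAR-4 response of -0.12 did not pass, so the difference was -0.64 ± 0.15 (SE; limma adjusted p = 0.0061). RNF43 shares 68.4% of its exonic bases with another annotated gene on the same strand, so its reads are uncertain. ASCL2, a stem cell factor of the crypt, fell in COLO 320DM by 0.74 and rose in OVCAR-4 by 0.46, with 1.24 and 1.40 RPKM with G007-LK against 0.682 and 0.992 RPKM with DMSO in OVCAR-4. It reached 1 RPKM in OVCAR-4 only through the G007-LK libraries. The rise in OVCAR-4 no longer passed without OVCAR-4 DMSO replicate 1 or either OVCAR-4 G007-LK library (limma adjusted p of 0.247, 0.103 and 0.19). The differences of TCF7 and TNFRSF19 were -0.69 and -0.66, and that of TCF7 did not pass without OVCAR-4 G007-LK replicate 1 (limma adjusted p = 0.111). Without OVCAR-4 G007-LK replicate 1 or replicate 2, 2 members passed. That of RNF43 did not pass without OVCAR-4 G007-LK replicate 2 (0.0727), and that of TNFRSF19 not without that library, OVCAR-4 G007-LK replicate 1 or OVCAR-4 DMSO replicate 1 (0.102, 0.142 and 0.129).

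Several WNT targets were on in 1 line alone and stood outside the comparison. APCDD1, an inhibitor at the receptor, had 89.2 and 88.1 RPKM with G007-LK against 219 and 247 RPKM with DMSO in COLO 320DM and at most 0.0308 RPKM in OVCAR-4. NKD1, which dampens Dishevelled, had 6.06 and 5.35 RPKM against 17.0 and 21.5 RPKM in COLO 320DM. LGR5, a receptor of intestinal stem cells, had 4.40 and 3.91 RPKM with G007-LK against 1.56 and 1.80 RPKM with DMSO in OVCAR-4, and 0.434 and 0.460 RPKM against 0.413 and 0.552 RPKM in COLO 320DM. These values were not tested.

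YAP/TEAD target genes fell more often in OVCAR-4. Of 22 such genes, 12 were compared, of which 4 fell and 1 rose in COLO 320DM and 10 fell and 0 rose in OVCAR-4. Of these 12, 9 had a positive and 0 a negative difference (13.5% and 6.55% of all genes), with a median of 0.55, and 0.46 after correction for GC content and length. On the rescaled values the median response of the list was -0.03 in COLO 320DM and -0.60 in OVCAR-4. The other 10 members were under 1 RPKM in COLO 320DM. Positive differences numbered 4 without OVCAR-4 DMSO replicate 2, OVCAR-4 G007-LK replicate 1 or OVCAR-4 G007-LK replicate 2, 6 without OVCAR-4 DMSO replicate 1 and 11 without COLO 320DM DMSO replicate 2.

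CRIM1, a transmembrane protein that binds growth factors, had 25.1 and 22.9 RPKM with G007-LK against 17.8 and 23.0 RPKM with DMSO in COLO 320DM, and 33.5 and 35.4 RPKM against 84.6 and 90.5 RPKM in OVCAR-4. The libraries overlapped in COLO 320DM, where the response of 0.24 passed only after rescaling (0.26, limma adjusted p = 0.0059) and correction (0.23, 0.0011). They were far apart in OVCAR-4, and the difference was 1.57 ± 0.14 (SE; limma adjusted p = 1.57e-07). The growth factor TGFB2 fell by 1.16 in OVCAR-4, against a response of 0.06 in COLO 320DM, and the phosphatase PTPN14, which restrains YAP, fell by 0.78 in OVCAR-4, against 0.22. Their differences were 1.22 and 1.00. THBS1, a secreted matrix glycoprotein often listed with YAP targets but not in the list used here, had 112 and 112 RPKM with G007-LK against 263 and 284 RPKM with DMSO in OVCAR-4, and 1.24 and 1.22 RPKM against 0.750 and 1.05 RPKM in COLO 320DM, with a difference of 1.59 ± 0.15 (SE; limma adjusted p = 2.8e-07). Its response of 0.31 in COLO 320DM did not pass in most alternatives, and it reached 1 RPKM there only through the G007-LK libraries.

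AMOTL2 and CYR61, widely used YAP readouts, fell in both lines. AMOTL2, an angiomotin and itself a YAP target, fell by 0.69 in COLO 320DM and by 1.12 in OVCAR-4, and the difference of 0.43 (limma adjusted p = 0.02) did not pass without OVCAR-4 DMSO replicate 2, OVCAR-4 G007-LK replicate 1 or OVCAR-4 G007-LK replicate 2 (0.074, 0.149 and 0.108). CYR61 (also CCN1) had 2.82 and 2.92 RPKM with G007-LK against 3.55 and 4.92 RPKM with DMSO in COLO 320DM, and 1108 and 1155 RPKM against 1771 and 1866 RPKM in OVCAR-4. Both falls passed, and the difference of 0.21 ± 0.14 (SE) did not (limma adjusted p = 0.299), except without COLO 320DM DMSO replicate 2, where it was 0.42 (4.93e-06). CTGF (also CCN2) had 192 and 206 RPKM with G007-LK against 341 and 364 RPKM with DMSO in OVCAR-4 but averaged under 1 RPKM in COLO 320DM, so it was not compared. ANKRD1, another classical target, had 112 and 109 RPKM against 443 and 499 RPKM in OVCAR-4 and likewise was nearly off in COLO 320DM.

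TEAD factors recognize GGAATG, which 14.0% of the 35116 promoters held in the same window on either strand. Some list members had several promoters, so a count of members does not compare directly with this share per promoter. Of the 16 list members with a promoter at hand, 9 held it in any of their promoters. Stretches of 80 bases are shown for 3 that had a positive difference, with the match, here on the opposite strand and so written CATTCC, in capitals.
AMOTL2: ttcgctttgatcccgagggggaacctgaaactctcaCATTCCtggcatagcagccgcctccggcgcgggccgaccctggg
PTPN14: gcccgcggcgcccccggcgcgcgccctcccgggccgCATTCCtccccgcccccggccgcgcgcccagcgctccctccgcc
TGFB2: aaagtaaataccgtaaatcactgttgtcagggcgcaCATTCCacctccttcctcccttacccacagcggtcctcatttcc
They lie at chr3:134374473-134374552 (-) for AMOTL2, chr1:214551759-214551838 (-) for PTPN14 and chr1:218345115-218345194 (+) for TGFB2 in GRCh38.p14, and the match begins at base -69, -200 and -185 from the start. AMOTL2 also had a promoter without a match. Such a short run of letters is common, and its presence is only a description.

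Genes of the BMP branch differed in both directions. Of 18 ligands, antagonists, SMADs and ID genes, 11 were compared, and 7 had a positive and 1 a negative difference (13.5% and 6.55% of all genes). The median was 0.66, and 0.34 after correction for GC content and length. The negative one was BAMBI, a decoy receptor that blocks BMP and TGFβ signals, with 10.2 and 10.8 RPKM with G007-LK against 27.8 and 29.8 RPKM with DMSO in COLO 320DM, and 12.5 and 13.9 RPKM against 11.8 and 12.4 RPKM in OVCAR-4. It fell in COLO 320DM. Its OVCAR-4 response of 0.12 did not pass as deposited but did after rescaling (0.25, limma adjusted p = 0.024) and correction (0.18, 0.033). The difference was -1.53 ± 0.14 (SE; limma adjusted p = 2.21e-07). SMAD9 and the inhibitory SMAD6 had differences of 1.02 and 0.95, and the BMP targets ID1 and ID3 of 0.78 and 0.52, each from a rise in COLO 320DM. SMAD6 also fell in OVCAR-4, by 0.38, and this fall did not pass without any one of the 4 OVCAR-4 libraries (limma adjusted p of 0.0525 to 0.151). The ligand BMP4 fell in both lines, by 0.70 in COLO 320DM and 1.64 in OVCAR-4. So did the antagonist GREM1, by 0.85 and 1.51. The difference of BMP4, 0.94, did not pass without OVCAR-4 G007-LK replicate 1 (limma adjusted p = 0.0572), and that of GREM1, 0.66, not without either OVCAR-4 G007-LK library (0.0816 and 0.0861). Without OVCAR-4 G007-LK replicate 1 the list had 4 positive differences.

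TXNIP had the most negative difference of all genes named. This arrestin-domain protein, at chr1:145438490-145442635 (hg19), limits glucose uptake and binds thioredoxin. It had 3.12 and 2.60 RPKM with G007-LK against 18.98 and 20.87 RPKM with DMSO in COLO 320DM, and 71.8 and 72.1 RPKM against 68.2 and 70.7 RPKM in OVCAR-4. The treated COLO 320DM libraries lay far below their controls, while the OVCAR-4 libraries were close together, and the difference was -2.66 ± 0.13 (SE; limma adjusted p = 3.08e-11). Its relative ARRDC3, also an arrestin-domain protein, moved the other way in COLO 320DM, with 11.9 and 10.8 RPKM with G007-LK against 3.99 and 4.75 RPKM with DMSO, and had 16.0 and 15.9 RPKM against 17.0 and 16.6 RPKM in OVCAR-4. Its difference was 1.35. In OVCAR-4 the TXNIP response of 0.05 passed only after rescaling (0.18, limma adjusted p = 0.034) and correction (0.20, 0.0053). With all 20 libraries in the fit, the response of TXNIP was -0.12, 0.80 and -0.42 in ABC-1, UO-31 and RKO cells. Only that in UO-31 passed (limma adjusted p of 0.397, 3.29e-05 and 0.481, in the same order).

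Glycolysis and hypoxia genes had lower responses in COLO 320DM. Of 26, 22 were compared, and 10 had a negative and 2 a positive difference (6.55% and 13.5% of all genes), with a median of -0.32, and -0.37 after correction for GC content and length. LDHA, which makes lactate, had 509 and 465 RPKM with G007-LK against 816 and 917 RPKM with DMSO in COLO 320DM, and 919 and 913 RPKM against 1050 and 1077 RPKM in OVCAR-4. It fell by 0.83 in COLO 320DM and by 0.21 in OVCAR-4. The OVCAR-4 fall did not pass after rescaling (-0.09, limma adjusted p = 0.137) or without OVCAR-4 DMSO replicate 2 or either G007-LK library (0.0573, 0.0967 and 0.109). LDHA had a difference of -0.61 ± 0.07 (SE; limma adjusted p = 9.35e-06). NDRG1, a stress protein induced in hypoxia, rose in OVCAR-4 by 0.47 and had a difference of -0.75. Its fall of 0.28 in COLO 320DM did not pass without any one library other than COLO 320DM DMSO replicate 1 (limma adjusted p of 0.0581 to 0.179), nor its OVCAR-4 rise without G007-LK replicate 1 or replicate 2 (0.0599 and 0.0705). VEGFA, the vascular growth factor, was one of the 2 positive members, at 0.64. Without COLO 320DM DMSO replicate 1, 16 members were negative.

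Sterol synthesis genes differed in 1 direction. Of 24, 23 were compared, and 14 had a positive and 0 a negative difference, against 13.5% and 6.55% of all genes. The median was 0.36, and 0.31 after correction for GC content and length. STARD4, a sterol carrier, had 11.7 and 10.5 RPKM with G007-LK against 5.66 and 7.64 RPKM with DMSO in COLO 320DM, and 10.3 and 11.0 RPKM against 12.3 and 13.3 RPKM in OVCAR-4. It was higher with G007-LK in COLO 320DM and did not pass in OVCAR-4, and the difference was 0.96 ± 0.17 (SE; limma adjusted p = 0.000629). The enzymes SC5D and CYP51A1 had differences of 0.73 and 0.54, and TM7SF2, another enzyme of the pathway, had 0.60. CYP51A1 shares 68.2% of its exonic bases with another annotated gene on the same strand, so its reads are uncertain. TM7SF2 did not pass without OVCAR-4 G007-LK replicate 1 (0.054), nor CYP51A1 without OVCAR-4 G007-LK replicate 2 (0.0582). The positive count was 4 without OVCAR-4 G007-LK replicate 1 or replicate 2, 7 without OVCAR-4 DMSO replicate 2 and 9 without COLO 320DM G007-LK replicate 1.

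All 30 lysosomal genes were compared, and 10 had a positive and 2 a negative difference, with a median of 0.23. The shares over all genes were 13.5% and 6.55%, so the negative members are no more frequent than there. NEU1, the lysosomal sialidase, had 47.2 and 48.5 RPKM with G007-LK against 16.3 and 18.1 RPKM with DMSO in COLO 320DM, and 95.8 and 99.6 RPKM against 80.6 and 78.2 RPKM in OVCAR-4. It rose in COLO 320DM by 1.45 and in OVCAR-4 by 0.30, and its difference was 1.15 ± 0.11 (SE; limma adjusted p = 2.21e-07). The OVCAR-4 rise did not pass without OVCAR-4 DMSO replicate 2 or either G007-LK library (0.097, 0.0681 and 0.106). The cholesterol-binding protein NPC2 and the proteases CTSL and TPP1 had differences of 0.82, 0.89 and 0.68. The positive count was 6 without OVCAR-4 G007-LK replicate 2 and 17 without COLO 320DM DMSO replicate 2. After the correction for GC content and length, 18 were positive and 4 negative, beside 18.7% and 21.0% of all genes.

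**Figure D4:**
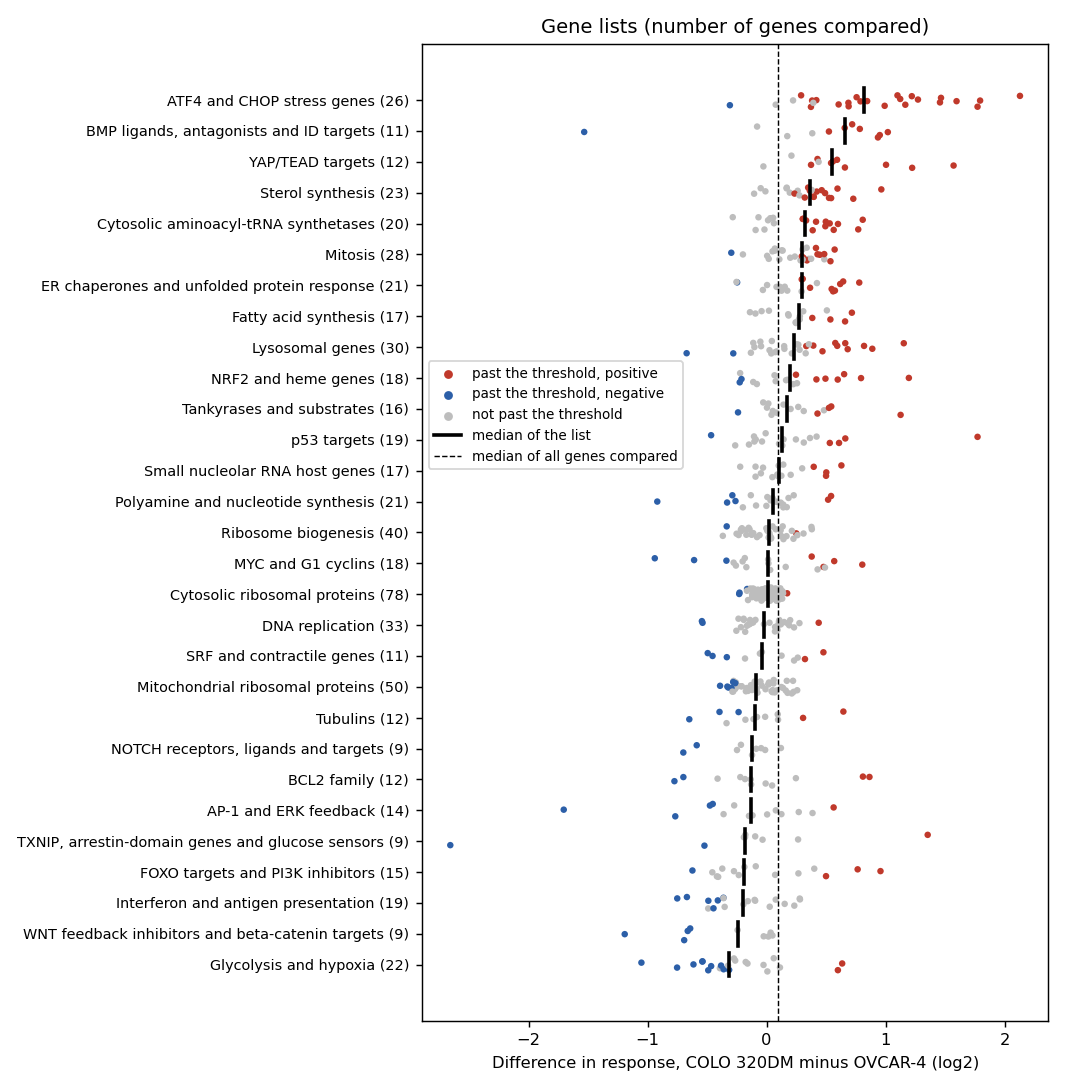
Differences in response (log2, COLO 320DM minus OVCAR-4) of the compared members of 29 gene lists with at least 9 such members, in order of the list median (black bar), with members past the threshold in red (positive) and blue (negative). Members of the ATF4 and CHOP list have a median of 0.82 and those of the glycolysis and hypoxia list one of -0.32, beside 0.10 for all genes (dashed line).

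MYC fell in both lines by amounts that the test did not separate. It had 1074 and 1028 RPKM with G007-LK against 1515 and 1655 RPKM with DMSO in COLO 320DM, where the gene is amplified, and 58.1 and 61.3 RPKM against 81.9 and 78.3 RPKM in OVCAR-4. The falls were 0.59 and 0.42 log2, and the difference was -0.17 ± 0.08 (SE; limma adjusted p = 0.13). It passed on the rescaled values (-0.28, 0.011), on the corrected values (-0.27, 0.0018) and without COLO 320DM DMSO replicate 1 (-0.23, 0.0114). MYCN, its paralog, fell by 1.15 in COLO 320DM, with 3.02 and 3.22 RPKM with G007-LK against 7.28 and 7.76 RPKM with DMSO, and had a difference of -0.94. CCND1, which encodes cyclin D1, fell in both lines, by 0.51 in COLO 320DM and 0.89 in OVCAR-4. Its difference of 0.38 (limma adjusted p = 0.0368) did not pass without COLO 320DM G007-LK replicate 1 or any one of the 4 OVCAR-4 libraries (0.122 to 0.181). CDKN1B, the cyclin-dependent kinase inhibitor p27, had 46.0 and 43.3 RPKM with G007-LK against 24.9 and 28.4 RPKM with DMSO in COLO 320DM, and 39.8 and 38.5 RPKM against 40.5 and 41.6 RPKM in OVCAR-4, with a difference of 0.80.

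In growth and cell cycle lists the counts of differences depended on the scale. Their counts stand beside 13.5% positive and 6.55% negative over all genes as deposited, 16.7% and 18.4% after rescaling, and 18.7% and 21.0% after correction. Of 40 ribosome biogenesis genes, 1 had a positive and 1 a negative difference, after rescaling 1 and 13, and after correction 2 and 13. The rescaled median response of the list was -0.41 in COLO 320DM and -0.29 in OVCAR-4. Without COLO 320DM DMSO replicate 2 it had 11 positive members and without COLO 320DM DMSO replicate 1 it had 8 negative ones. Of 33 DNA replication genes, 1 was positive and 2 negative, after rescaling 1 and 14, and after correction 1 and 14. The counts as deposited moved when either COLO 320DM DMSO library was left out. The 2 negative ones were thymidine kinase TK1, at -0.54, with 48.9 and 50.6 RPKM with G007-LK against 72.8 and 74.9 RPKM with DMSO in COLO 320DM and 539 and 563 RPKM against 559 and 559 RPKM in OVCAR-4, and GINS2, a subunit of the replicative helicase, at -0.54. Of 28 mitosis genes, 9 were positive and 1 negative, after rescaling 14 and 2, and after correction 11 and 1. Their positive count was 20 without COLO 320DM DMSO replicate 2, 15 without COLO 320DM G007-LK replicate 2, 1 without COLO 320DM G007-LK replicate 1, 2 without OVCAR-4 DMSO replicate 1 and 0 without OVCAR-4 DMSO replicate 2 or either OVCAR-4 G007-LK library. Of 50 mitochondrial ribosomal proteins, 0 were positive and 6 negative, and after rescaling 0 and 21, and 4 and 19 after the correction for GC content and length. Without a library their negative count ran between 0, without OVCAR-4 DMSO replicate 1 or G007-LK replicate 2, and 14, without COLO 320DM DMSO replicate 1, and 8 were positive without COLO 320DM DMSO replicate 2.

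The AP-1 and ERK feedback list and the interferon list held some members past the threshold. ETV5, an ETS factor that follows ERK activity, had 3.32 and 2.72 RPKM with G007-LK against 10.7 and 12.6 RPKM with DMSO in COLO 320DM, and 1.48 and 1.51 RPKM against 1.43 and 1.80 RPKM in OVCAR-4. It fell in COLO 320DM alone, and the difference was -1.70 ± 0.19 (SE; limma adjusted p = 4.18e-06). ETV5 belongs to a list of 22 AP-1 and ERK feedback genes, of which 8 were not compared. Of the uncompared genes, SPRY1 had 11.2 and 11.4 RPKM with G007-LK against 15.5 and 15.6 RPKM with DMSO in OVCAR-4. SPRY2, SPRY4 and FOSL1 were also lower there with G007-LK, while EGR1 and FOSB were higher and FOS overlapped. These values were not tested. Of the 14 compared genes of that list, 4 were negative and 1 positive (6.55% and 13.5% of all genes), with 1 negative without OVCAR-4 G007-LK replicate 2 and 4 positive without COLO 320DM DMSO replicate 2. Of 37 interferon and antigen presentation genes, 19 were compared, with 6 negative and 0 positive, against the same shares. IFITM1, a membrane protein that blocks virus entry, had 33.8 and 32.3 RPKM with G007-LK against 42.4 and 40.5 RPKM with DMSO in COLO 320DM, and 63.8 and 63.6 RPKM against 50.8 and 43.8 RPKM in OVCAR-4. It thus fell in COLO 320DM and rose in OVCAR-4, with a difference of -0.75 ± 0.11 (SE; limma adjusted p = 0.000106). IFITM1, IFI6 and HLA-B share 21.1%, 23.1% and 30.7% of their exonic bases with another annotated gene on the same strand. Their reads are thus uncertain. IFI6 and HLA-B had differences of -0.67 and -0.45, with OVCAR-4 responses of 0.45 and 0.32, and neither difference passed without OVCAR-4 G007-LK replicate 2 (0.0873 and 0.0786). The OVCAR-4 response of IFI6 did not pass without OVCAR-4 DMSO replicate 2 or G007-LK replicate 2 (limma adjusted p of 0.122 and 0.146), nor that of HLA-B without DMSO replicate 1, DMSO replicate 2 or G007-LK replicate 2 (0.056, 0.068 and 0.101). The interferon list had 2 negative members without OVCAR-4 G007-LK replicate 2 and 10 without COLO 320DM DMSO replicate 1.

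Some genes moved in opposite directions. Among the differences, 134 belonged to genes that rose in COLO 320DM and fell in OVCAR-4 and 77 to genes that fell in COLO 320DM and rose in OVCAR-4. After rescaling the numbers were 209 and 328, and after correction for GC content and length 266 and 361. Which pattern held more genes thus depended on the scale. PLS1, the actin bundler fimbrin of epithelial microvilli, had 18.8 and 16.4 RPKM with G007-LK against 7.14 and 8.72 RPKM with DMSO in COLO 320DM, and 46.5 and 46.3 RPKM against 70.6 and 74.7 RPKM in OVCAR-4. The groups were apart in both lines, with responses of 1.11 and -0.64. SPHK1, a sphingosine kinase, had 0.591 and 0.744 RPKM with G007-LK against 1.55 and 1.25 RPKM with DMSO in COLO 320DM, and 66.9 and 72.9 RPKM against 43.6 and 44.8 RPKM in OVCAR-4. It fell by 0.70 in COLO 320DM, where it reached 1 RPKM only through the DMSO libraries, and rose by 0.65 in OVCAR-4. SLC6A6, the taurine transporter, had 12.9 and 11.5 RPKM with G007-LK against 17.2 and 22.5 RPKM with DMSO in COLO 320DM, and 17.0 and 16.7 RPKM against 11.3 and 11.2 RPKM in OVCAR-4. The order of the lines in RPKM turned round with treatment, but these values were not rescaled between the lines. The rise of SLC6A6 in OVCAR-4 did not pass without either OVCAR-4 G007-LK library, nor that of SPHK1 without OVCAR-4 G007-LK replicate 2 (limma adjusted p of 0.0651, 0.0569 and 0.0506). In the BCL2 family, the survival gene BCL2L1 rose in COLO 320DM and fell in OVCAR-4, by 0.28 and 0.53. BCL2L1 shares 41.3% of its exonic bases with ABALON on the opposite strand. The death-promoting BCL2L11 had responses of -0.26 in COLO 320DM and 0.52 in OVCAR-4. The first did not pass as deposited but did after rescaling (-0.24, limma adjusted p = 0.013) and correction (-0.26, 0.0019), and the second did not pass without OVCAR-4 G007-LK replicate 1 or replicate 2 (0.0794 and 0.0532).

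**Figure D5:**
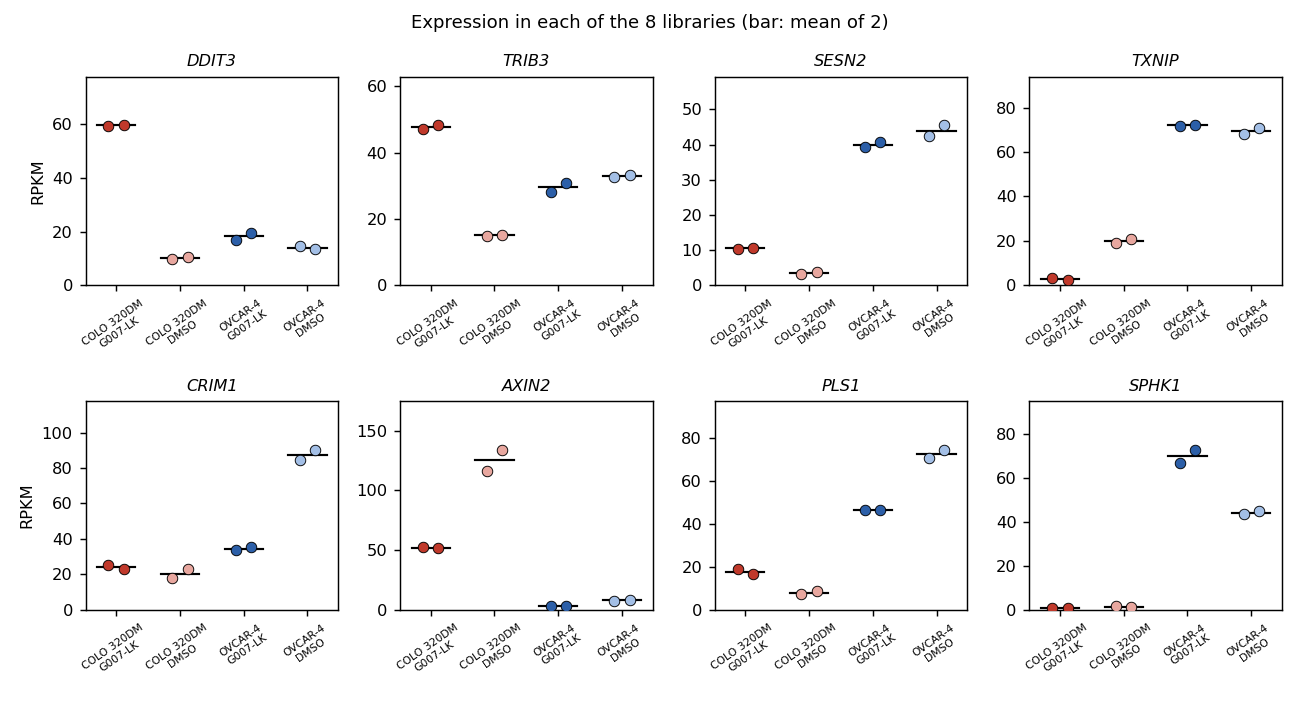
RPKM of 8 genes in each of the 8 libraries, with G007-LK left of DMSO in each line and a bar at the mean of 2 libraries. DDIT3, TRIB3 and SESN2 change in COLO 320DM, TXNIP falls there, CRIM1 falls in OVCAR-4, AXIN2 falls in both lines, and PLS1 and SPHK1 move in opposite directions.

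Other large differences belonged to none of the lists above. NEXN, an actin-binding protein of muscle, had 1.52 and 1.24 RPKM with G007-LK against 8.53 and 9.77 RPKM with DMSO in COLO 320DM, and 41.8 and 45.5 RPKM against 52.3 and 57.1 RPKM in OVCAR-4. It fell by 2.36 in COLO 320DM, and its difference was -2.04 ± 0.15 (SE; limma adjusted p = 1.68e-08). SNAP25, a protein of synaptic vesicle release, fell by 1.15 in COLO 320DM and had a difference of -1.49. TMEM101, a membrane protein, had 13.7 and 14.5 RPKM with G007-LK against 4.48 and 4.95 RPKM with DMSO in OVCAR-4, and 29.8 and 30.3 RPKM against 29.3 and 30.1 RPKM in COLO 320DM. Here the change was in OVCAR-4, and the difference was -1.47 ± 0.13 (SE; limma adjusted p = 2.21e-07). The WNT receptor FZD8 and the intermediate filament nestin (NES) had differences of -1.34 and -1.33, each with a fall in COLO 320DM and a rise in OVCAR-4, and the rise of FZD8 did not pass without OVCAR-4 DMSO replicate 1 or either OVCAR-4 G007-LK library (limma adjusted p of 0.107, 0.0794 and 0.0969). MALAT1, a nuclear long noncoding RNA, and IGFBP5, which binds insulin-like growth factors, rose in COLO 320DM by 1.86 and 1.95 and had differences of 1.71 and 1.64. MALAT1 shares 77.8% of its exonic bases with TALAM1 on the opposite strand. IGFBP5 reached 1 RPKM in COLO 320DM only through its G007-LK libraries (4.66 and 4.18 RPKM, against 0.824 and 0.717 RPKM with DMSO).

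The RNA of the inhibitor's targets gave no difference past the threshold. TNKS had 6.35 and 6.06 RPKM with G007-LK against 3.55 and 4.86 RPKM with DMSO in COLO 320DM, and 5.43 and 5.17 RPKM against 4.97 and 5.30 RPKM in OVCAR-4, and its difference of 0.48 ± 0.18 (SE) had a limma adjusted p of 0.0654. That of TNKS2 was 0.31 ± 0.16 (SE; limma adjusted p = 0.179). Without COLO 320DM DMSO replicate 2 both passed, at 0.69 (9.93e-05) and 0.51 (0.000163), and TNKS also passed after rescaling (0.38, 0.037). Of 16 compared tankyrases and known substrates, 4 had a positive and 1 a negative difference, beside 13.5% and 6.55% of all genes, and the negative share is near that. After correction for GC content and length 3 were positive and 1 negative, beside 18.7% and 21.0% of all genes. On that scale the positive share is near that of all genes. The median difference of the list was 0.17, and 0.06 after the correction. LNPEP, an aminopeptidase of the insulin-responsive vesicles, fell by 0.80 in OVCAR-4, with 16.8 and 16.9 RPKM with G007-LK against 28.6 and 30.6 RPKM with DMSO, and had a difference of 1.13. The substrate list had 1 positive difference without OVCAR-4 G007-LK replicate 1, 2 without OVCAR-4 G007-LK replicate 2 or OVCAR-4 DMSO replicate 2, and 7 without COLO 320DM DMSO replicate 2.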

How the data were processed

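The deposited values are RPKM per gene, which the authors computed per library: poly(A) RNA was enriched with oligo(dT), fragmented, sequenced on an Illumina HiSeq and aligned with SOAP2 to an hg19 gene set. No source used here says whether counting used strand. The table's 21610 entries gave 21201 symbols. The 371 symbols on several entries were joined, and none of them had values on several entries in the same library. A lost hyphen was restored in 776 symbols, and 8 entries without a symbol (at most 0.00134% of RPKM) were left out. The deposited tables of the authors' own comparisons (log2 ratios and probabilities) were not used.

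Missing values were set to 0. Genes with a mean of 1 RPKM or more in both lines were fitted as log2(RPKM + 0.5) with limma 3.58.1 (R 4.3.3, trended and robust variance), with 4 group means over 8 libraries, two-sided contrasts and Benjamini-Hochberg adjustment over all genes (threshold 0.05). RPKM is not a count, so no count test was run. The precision rests on 2 libraries per group and on 1 estimate of the spread per gene, shared by both lines. Where replicates share cultures the p-values cover technical spread. The fit was tested on simulated data with independent noise per gene and library, so shifts of whole libraries and dependence on GC content were not covered. Alternatives were the pseudocount (0.1 and 1), the filter (none, or 5 RPKM), rescaling, all 20 libraries, an untrended fit, a replicate block and leaving out each library. A correction for GC content and length and a crossed block were added after the data had been seen.

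Genes were named by rule: the 12 largest differences in each direction (at least 5 RPKM, past the threshold also after rescaling), up to 4 members of each list, the 6 clearest genes of each opposite pattern, and a few genes of interest (MYC, CCND1, AXIN2, CTGF, CYR61, AMOTL2, NUPR1, TNKS, TNKS2). Other names are members of a list, given as such. The members and lists were chosen with earlier results of these data known.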

Additional observations from a re-analysis of the deposited data

Results flagged for a closer look

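The responses of the 2 lines differed by a test of the difference itself for 2099 genes. Of these, 12 named genes passed in both lines in opposite directions with all 8 libraries, as deposited and after rescaling. PLS1 (1.75), ARHGAP29 (1.53), GAS2L3 (1.50), RTKN2 (1.47), CCDC183-AS1 (1.33) and ARHGAP23 (1.15) rose in COLO 320DM and fell in OVCAR-4, each value being the log2 difference. KRT81 (-1.86), SNORA76 (-1.39), SPHK1 (-1.35), SLC6A6 (-1.23), IFIH1 (-1.02) and RHOV (-1.02) fell in COLO 320DM and rose in OVCAR-4. CCDC183-AS1 shares 26.1% of its exonic bases with CCDC183 on the opposite strand, and SNORA76 is a small nucleolar RNA, which poly(A) selection captures poorly. The OVCAR-4 response of 7 of the 12 did not pass with 1 OVCAR-4 library left out. Without G007-LK replicate 1 the limma adjusted p was 0.0671 for GAS2L3, 0.0757 for CCDC183-AS1, 0.143 for SNORA76, 0.0861 for IFIH1, 0.0744 for RHOV and 0.0651 for SLC6A6. Without G007-LK replicate 2 it was 0.0529 for GAS2L3, 0.0597 for CCDC183-AS1, 0.064 for SNORA76, 0.0773 for IFIH1, 0.0506 for SPHK1 and 0.0569 for SLC6A6, and without DMSO replicate 1 it was 0.0573 for SNORA76. The COLO 320DM response of IFIH1 did not pass without COLO 320DM G007-LK replicate 2 (0.0631). With all 20 libraries in the fit, SNORA76 passed in neither line (COLO 320DM 0.227, OVCAR-4 0.386) and its difference did not pass (0.18). ARHGAP29 and CCDC183-AS1 reached 1 RPKM in COLO 320DM only through the G007-LK libraries, and KRT81 and SPHK1 only through the DMSO libraries.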

How the results depend on the processing

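The count of differences in response, 2099 as reported, was 3672 after median ratio rescaling, 3490 after quantile normalization, 3979 with equal sums of RPKM and 4072 after the GC content and length correction, and ran from 533 to 4904 with 1 library left out. Positive values made up 67.4% of the calls as reported, 47.6% after rescaling, 50.4% after quantile normalization, 73.2% with equal sums and 47.2% after the correction. Of the OVCAR-4 response calls, rises made up 17.7% as reported and 28.9% with equal sums. They made up 51.8% after rescaling, 49.5% after quantile normalization and 45.9% after the correction. The COLO 320DM response count, 3380 as reported, was 5767 after the correction, and ran from 2363 to 4754 with 1 library left out. The OVCAR-4 count, 2967 as reported, ran from 496 to 5035. The median difference, 0.10 as reported, was -0.004 after rescaling, after rescaling with the replicate block and after the correction, 0.001 after quantile normalization, and 0.016 to 0.18 with 1 library left out.

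Whether replicate numbers pair the samples is not known. Deviations of same-numbered libraries correlated at -0.279 in COLO 320DM and -0.005 in OVCAR-4. The dependence of these deviations on GC content ran in opposite directions with DMSO and with G007-LK in both lines. The correlations therefore cannot settle whether the samples were paired. With the replicate block the counts were 1206 differences and 1804 responses in OVCAR-4. With the pairing crossed in COLO 320DM they were 4613 differences, 5363 responses in COLO 320DM and 5303 in OVCAR-4.

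The differences of AXIN2, NOTUM and ZNRF3, which did not pass as reported, changed sign, and that of CYR61, which did not pass either, reached 0. AXIN2 was -0.089 with a pseudocount of 1, -0.08 after rescaling with or without the block, -0.175 after quantile normalization, -0.059 after the correction and -0.089 to 0.119 with 1 library left out. NOTUM was 0.003 with equal sums, 0.022 after the correction and -0.066 to 0.018 with 1 library left out. ZNRF3 was -0.068 after rescaling with or without the block, -0.162 after quantile normalization, -0.107 after the correction and -0.094 to 0.162 with 1 library left out. CYR61 was 0 to 0.419 with 1 library left out. The cause of these shifts was not tested. Of 95 named differences past the threshold, 71 passed in the same direction in every alternative run for them, 46 in 21 and 25 in 20, since some genes had no value under the 5 RPKM filter or the correction, and 73 without each of the 8 libraries in turn. Many of these genes were named because their difference was large and also passed after rescaling, which is 1 of the alternatives. The share that kept its call therefore does not stand for all genes. Depth is unknown, and 2 libraries per group limit every value.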
